A study of Homo sapiens with 4 samples.

Results

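Collagens and laminins are the chains from which cells build fibrils, networks and basement membranes. All protein-coding genes in the deposited count table whose symbols begin with COL or LAM followed by a chain number were taken, which gave 57 of 58735 genes (19951 protein coding). They comprise 44 collagen genes, 12 laminin genes and COL4A3BP, whose symbol fits the pattern although it encodes a ceramide transfer protein. COL4A3BP was counted among the 57 genes and left out of every structural class. The genes were read in 4 RNA-seq libraries of the human breast cancer cell line MDA-MB-231, which is triple negative (no oestrogen or progesterone receptor and no ERBB2 amplification), all with the TetOn-H2BeGFP reporter, a histone fused to eGFP whose transcription needs doxycycline.

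Every group, including the reference, was given doxycycline at 5 μg/ml for 3 days, stained with the Claret and Violet dyes and grown for 12 days in medium with 10% serum, during which dividing cells dilute each label. The groups called Claret, eGFP and Violet are cells sorted as the top 1% for the named label and are described as slow-cycling. Bulk cells were collected without a fluorescence gate, so Bulk also holds whatever label-retaining cells the culture contained. Each group is 1 library of 1 cell line, so a difference between groups has no replicate check. The 3 slow-cycling libraries are all set against the same Bulk library.

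Titles and treatment fields of the samples name different sorts in all 4 cases. The library titled Bulk is sorted for Claret in its treatment field, the one titled Claret for eGFP, the one titled H2B-eGFP for Violet, and the one titled Violet is un-gated there. The titles also name the columns of the tables and are used throughout, so every direction given below is that of the library so titled. Summed counts ranged from 15508179 to 16976909 reads, and a count of 3, the limit that 0 reads allow, equals 0.177 to 0.193 CPM, the read count scaled to a fixed library total. All 8 proliferation genes listed (BUB1, CCNB1, CDK1, MCM2, MCM6, MKI67, PCNA and TOP2A) fell in each of the libraries titled Claret, eGFP and Violet, with log2 ratios to Bulk from -3.31 to -1.22. VIM, CD44, AXL and ZEB1, expressed in this line, were among the tested genes. Of the 5 genes listed as low in it, PGR had 0 reads, ESR1 3 to 7, CDH1 0 to 3 and EPCAM 28 to 61, while ERBB2 had 1415 to 1542.

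Laminins are trimers of 1 alpha, 1 beta and 1 gamma chain that polymerise on the cell surface through integrin and dystroglycan receptors, and type IV collagen forms the second network of the basement membrane. Fibrillar collagens (types I, II, III, V, XI, XXIV and XXVII) assemble into the banded fibrils of the interstitial matrix, which in most tumours are made mainly by fibroblasts. Network collagens (types IV, VIII and X) form sheets or lattices. Type VI forms beaded filaments, FACIT collagens sit on fibril surfaces, and transmembrane collagens span the plasma membrane. Type IV belongs to both the network and the basement-membrane class below.

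Of the 57 genes, 34 reached a mean of 1 CPM over the 4 libraries and were tested, and 21 reached 10 CPM. The other 23 had at most 22 reads in any library, and 17 of them had no more than 6 reads over all 4 libraries together. COL1A2, COL9A1, COL14A1 and LAMB4 had 0 reads in each library. By class, 16 of 21 basement-membrane genes were tested (9 of 12 laminins and 5 of 6 type IV chains among them), with 6 of 11 fibrillar genes, 6 of 9 network genes, 3 of 5 type VI genes, 5 of 10 FACIT genes and 2 of 4 transmembrane genes. The untested classical fibrillar chain COL3A1 had 3 reads in Bulk against 1 (Claret), 0 (eGFP) and 2 (Violet), and the untested type IV chain COL4A6 had 4, 6, 5 and 8. The tested genes COL4A3, COL11A2 and COL20A1 were under 1 CPM in Bulk and passed through the slow-cycling libraries, and 3 others (COL5A2, COL9A3 and COL24A1) were under 1 CPM in at least 1 slow-cycling library, so their calls below rest on few reads.

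Laminin chains held the first 3 places when levels were compared between genes per unit length. In deposited FPKM (fragments scaled by gene length and library total), LAMB3 had 188 in Bulk against 285 (Claret), 299.7 (eGFP) and 260.0 (Violet). LAMA5 followed with 81.3, 173, 177 and 192 FPKM in the same order of libraries, and LAMB2 with 74.6, 119, 138 and 126 FPKM. These 3 ranks were the same in all 4 libraries. The most abundant fibrillar chain, COL5A1, had rank 11 in Bulk with 9.16 FPKM. The most abundant type IV chain, COL4A2, had rank 10 there with 10.6 FPKM. All collagen and laminin genes together took 0.451% of reads in Bulk against 0.710% (Claret), 0.764% (eGFP) and 0.778% (Violet), and laminins alone took 0.303%, 0.542%, 0.579% and 0.588%. With RNA from pooled cells, a change in the number of cells expressing a gene and a change in RNA per cell cannot be told apart.

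**Figure D1:**
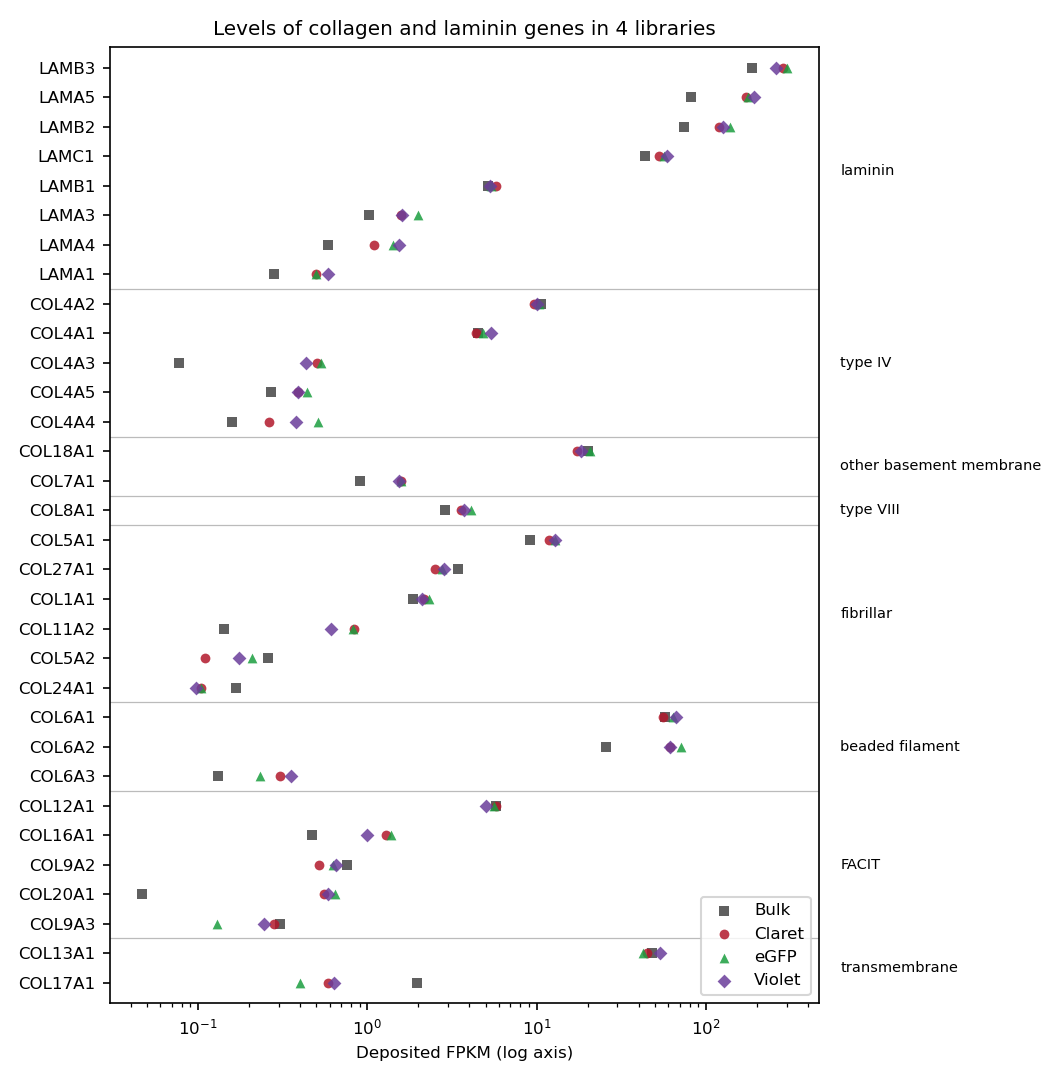
Deposited FPKM (log axis) of the collagen and laminin genes named in the text and tested, in each library, 1 marker per library, grouped by class. LAMB3, LAMA5 and LAMB2 lie furthest right in each library, and most fibrillar and FACIT chains lie below 10 FPKM.

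Calls came from a two-sided exact conditional binomial test on the reads of 2 libraries, adjusted by the Benjamini-Hochberg method over all 14585 tested genes. A gene was called at an adjusted p under 0.05 and a change of at least 2-fold, a log2 ratio of 1 in size. In the Claret library 7 of 34 genes (20.6%) rose against Bulk, where 11.2% of all tested genes did, and 2 (5.88%) fell against 6.71% of all. In eGFP 9 rose (26.5%, background 11.9%) and 2 fell (5.88%, background 7.61%). In Violet 11 rose (32.4%, background 11.5%) and 1 fell (2.94%, background 6.91%). A rise in all 3 libraries was called for 6 genes (17.6%, background 8.41%): LAMA5, COL4A3, COL6A2, COL11A2, COL16A1 and COL20A1. Of these, COL4A3, COL11A2 and COL20A1 were under 1 CPM in Bulk and were tested only through their slow-cycling values. For them the filter itself favoured a rise, as it did for such genes in the background. COL17A1 alone fell in all 3 (2.94%, background 4.93%). The other 27 were not called in all 3, and 20 were called in none. Among the 21 of at least 10 CPM, 3, 5 and 4 rose in Claret, eGFP and Violet, where 7.13%, 7.72% and 7.16% of all 10112 genes at that level did. None of the 21 fell, where 5.50%, 6.36% and 5.90% of all did. With groups taken from the treatment field, 1 gene rose (background 6.91%) and 11 fell (background 11.5%) in the library that field calls Claret, and 0 were called in the other 2 (backgrounds 0.213% higher and 0.569% lower for eGFP, 0.274% and 0.651% for Violet). The test compares pairs of libraries, not conditions, and its intervals cover counting error only.

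The classes differed in their medians. Basement-membrane genes had median log2 ratios to Bulk of 0.67 (Claret), 0.84 (eGFP) and 0.75 (Violet) over 16 tested genes. Network genes had 0.43, 0.62 and 0.49 over 6, and fibrillar genes had -0.10, 0.04 and 0.00 over 6, beside -0.01, -0.01 and 0.01 over all tested genes. Laminins had 0.69, 0.91 and 0.81, with all 9 above 0 in each library. A median counts scarce and abundant genes alike, and the class sums gave another order. Network genes summed to 295 CPM in Bulk against 297 (Claret), 327 (eGFP) and 333 (Violet). Fibrillar genes summed to 169 CPM against 196, 215 and 218, and basement-membrane genes to 3473 CPM against 5845, 6272 and 6354. Among basement-membrane genes 2 (12.5%), 5 (31.2%) and 6 (37.5%) of 16 rose in Claret, eGFP and Violet, beside 11.2%, 11.9% and 11.5% of all tested genes, so the Claret share was near the background. None of the 16 fell in any of these libraries, beside 6.71%, 7.61% and 6.91% of all tested genes. Among fibrillar genes COL11A2 rose in each library and COL5A2 fell in Claret. COL4A3, counted in each basement-membrane share above, and COL11A2 were under 1 CPM in Bulk. They were tested only through their slow-cycling values, so the filter itself favoured a rise for both. LAMA5 was the other basement-membrane gene that rose in Claret. The difference between classes was not tested, since the genes of a class are not replicates.

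**Figure D2:**
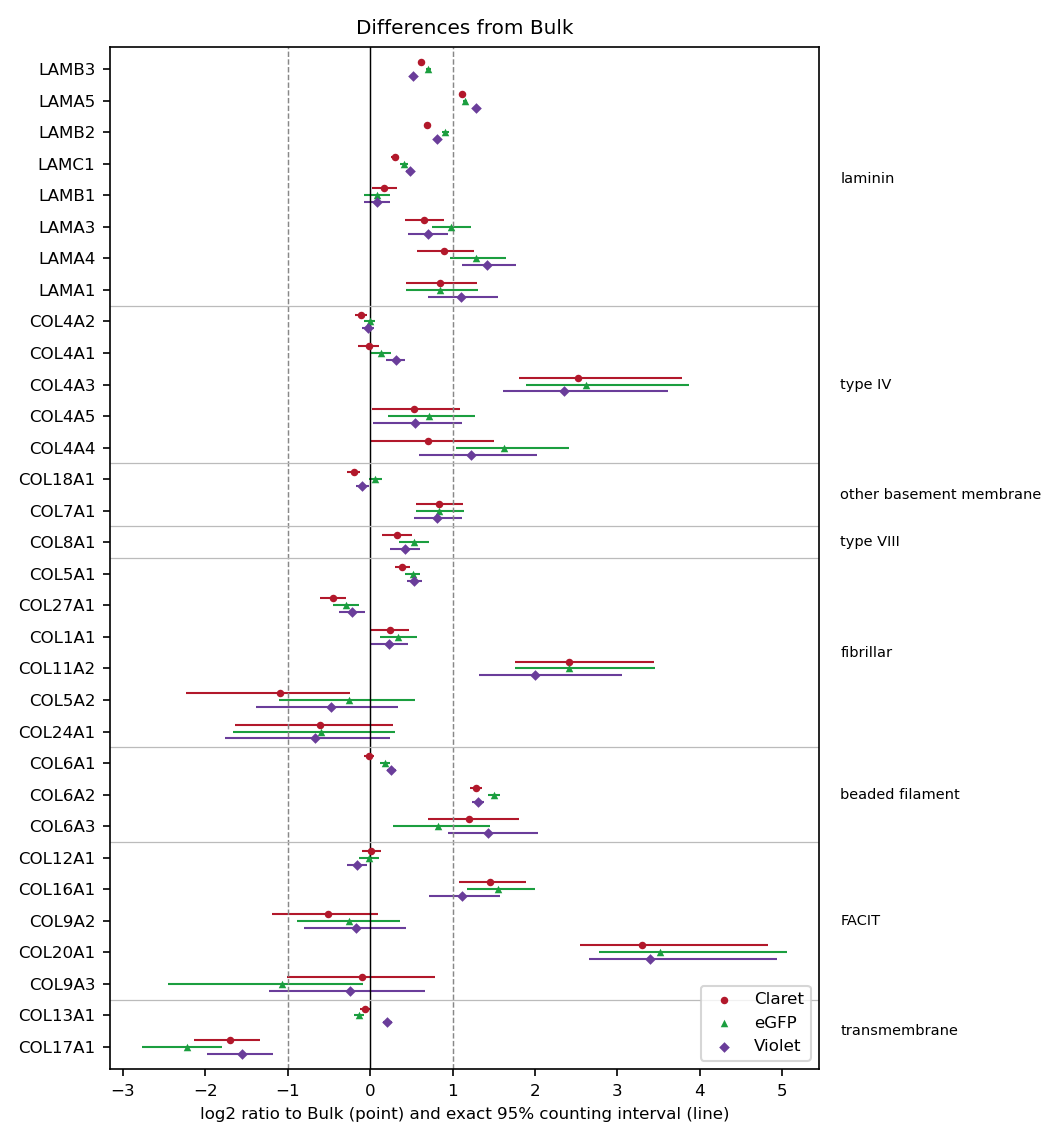
Log2 ratio to Bulk (point) with its exact 95% counting interval (line) for the tested collagens and laminins named in the text, in Claret, eGFP and Violet, by class, with dashed lines at -1 and 1. All laminin points shown lie right of 0, while fibrillar points lie on both sides and COL17A1 lies beyond -1 in each library.

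LAMA5, the alpha chain of the laminins widespread in adult basement membranes, rose in all 3 slow-cycling libraries. The gene (ENSG00000130702) lies on the minus strand of chromosome 20 at 62307955 to 62367312 (GRCh38). It had 18054 reads in Bulk against 42011 (Claret), 40499 (eGFP) and 43984 (Violet), with the 3 slow-cycling libraries close to each other and each above Bulk. It was 2.16-fold higher in Claret, 2.22-fold in eGFP and 2.44-fold in Violet, as log2 ratios 1.11 (95% interval 1.09 to 1.14), 1.15 (1.13 to 1.18) and 1.29 (1.26 to 1.31). After correction for GC content these log2 ratios were 0.87, 0.89 and 1.05, so that only the Violet ratio stayed past 1. LAMA5 supplied 97.7% of alpha-chain FPKM in Bulk and 98.1% in Claret and in Violet, with 97.8% in eGFP. Its exons share 2.54% of their length with opposite-strand genes, including ADRM1, with 2434 reads in Bulk and 1605 to 1917 elsewhere. The use of strand in counting is not given in the sources used here.

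Sequence before the start of LAMA5 is shown because this gene contributes most reads of the set and rose in each library. The 250 bases end at the base before the deposited gene boundary (RefSeq, GRCh38.p14, chr20:62367313-62367562, minus strand). Capitals mark GGGCGG, the core letters bound by Sp-family factors, or its reverse complement CCGCCC, which occur 5 times here. The search for TGANTCA, the letters bound by AP-1 and searched because the series title names AP-1, and for CCAAT matched nothing in this stretch.
LAMA5: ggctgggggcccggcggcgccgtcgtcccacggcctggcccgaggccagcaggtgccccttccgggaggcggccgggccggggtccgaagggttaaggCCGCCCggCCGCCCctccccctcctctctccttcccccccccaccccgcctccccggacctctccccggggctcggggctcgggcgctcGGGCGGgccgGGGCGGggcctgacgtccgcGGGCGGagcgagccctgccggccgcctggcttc

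The minor alpha chains were much lower per unit length. LAMA4, typical of vascular and mesenchymal basement membranes, had 106 reads in Bulk against 215 (Claret), 264 (eGFP) and 287 (Violet). It rose in eGFP with a log2 ratio of 1.29 (0.97 to 1.64) and in Violet with 1.42 (1.11 to 1.77), while its ratio in Claret was 0.90 (0.57 to 1.26). LAMA1, best known from embryonic basement membranes, had 69, 135, 127 and 150 reads. It rose in Violet with 1.10 (0.70 to 1.55), beside 0.84 in Claret and 0.85 in eGFP. LAMA1 shares 11.1% of its exon length with opposite-strand genes that had 0 reads. LAMA3, the alpha chain of the anchoring laminin of epithelia, had 233, 396, 465 and 379 reads and log2 ratios of 0.65, 0.98 and 0.70, none at 1. All 4 tested alpha chains thus lay above their Bulk value in each slow-cycling library, with LAMA5 alone called in all 3.

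LAMB3 and LAMB2 were higher in each slow-cycling library without reaching 2-fold, and LAMB1 lay near its Bulk value. LAMB3, the beta partner of LAMA3, had 13684 reads in Bulk against 22661 (Claret), 22453 (eGFP) and 19566 (Violet), with log2 ratios of 0.62 (0.59 to 0.65), 0.70 (0.67 to 0.73) and 0.52 (0.49 to 0.55). LAMB2, the beta chain of synaptic and kidney basement membranes, had 7959, 13855, 15105 and 13929 reads and log2 ratios of 0.69, 0.91 and 0.81. LAMB1, the beta chain of most embryonic and adult laminins, had 655, 796, 700 and 691 reads and log2 ratios of 0.17, 0.08 and 0.08, the last 2 with intervals that include 0. LAMB2 therefore exceeded LAMB1 by 14.4 times in FPKM in Bulk and by 20.6, 25.6 and 23.9 times in Claret, eGFP and Violet. The counting intervals of this ratio are 13.3 to 15.6 in Bulk, and the lowest bound among the slow-cycling libraries is 19.2.

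LAMC1, the gamma chain of most laminins (chromosome 1, 183023460 to 183145592, plus strand), was higher in each slow-cycling library without reaching 2-fold. It had 5683 reads in Bulk against 7543 (Claret), 7635 (eGFP) and 7935 (Violet), with log2 ratios of 0.30, 0.41 and 0.48. LAMA5 exceeded LAMC1 by 1.87 times (1.81 to 1.93) in FPKM in Bulk and by 3.28, 3.12 and 3.26 times in the other libraries, where the lowest bound was 3.04.

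LAMA3 and LAMB3, chains of the anchoring laminin, were present at very unequal levels. LAMB3 exceeded LAMA3 by 184 times in FPKM in Bulk and by 179, 151 and 162 times in the other libraries. In the promoter windows of the tested genes, LAMA3 and LAMB3 were the 2 genes with a TGANTCA match. That is 2 of 33 windows (6.06%), beside 7.71% of all 35116 RefSeq windows of the same length. The matches are printed because they are the only AP-1 letters found in these windows, with the match in capitals and each sequence read 5′ to 3′ along its gene. In both genes the matches lie before a RefSeq start inside the deposited gene bounds. Those of LAMA3 are at chr18:23872885-23872911 and chr18:23872941-23872967, plus strand, and that of LAMB3 at chr1:209651425-209651451, minus strand. The other LAMB3 windows, nearer its deposited boundary, held 0 matches.
LAMA3 site 1: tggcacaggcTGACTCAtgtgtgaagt
LAMA3 site 2: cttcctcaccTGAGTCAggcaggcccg
LAMB3 site: tcagccactcTGACTCAttcactttgg
Neither gene was called against Bulk in any library, as given above. A match is a run of letters, and binding of a factor was not measured here.

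**Figure D3:**
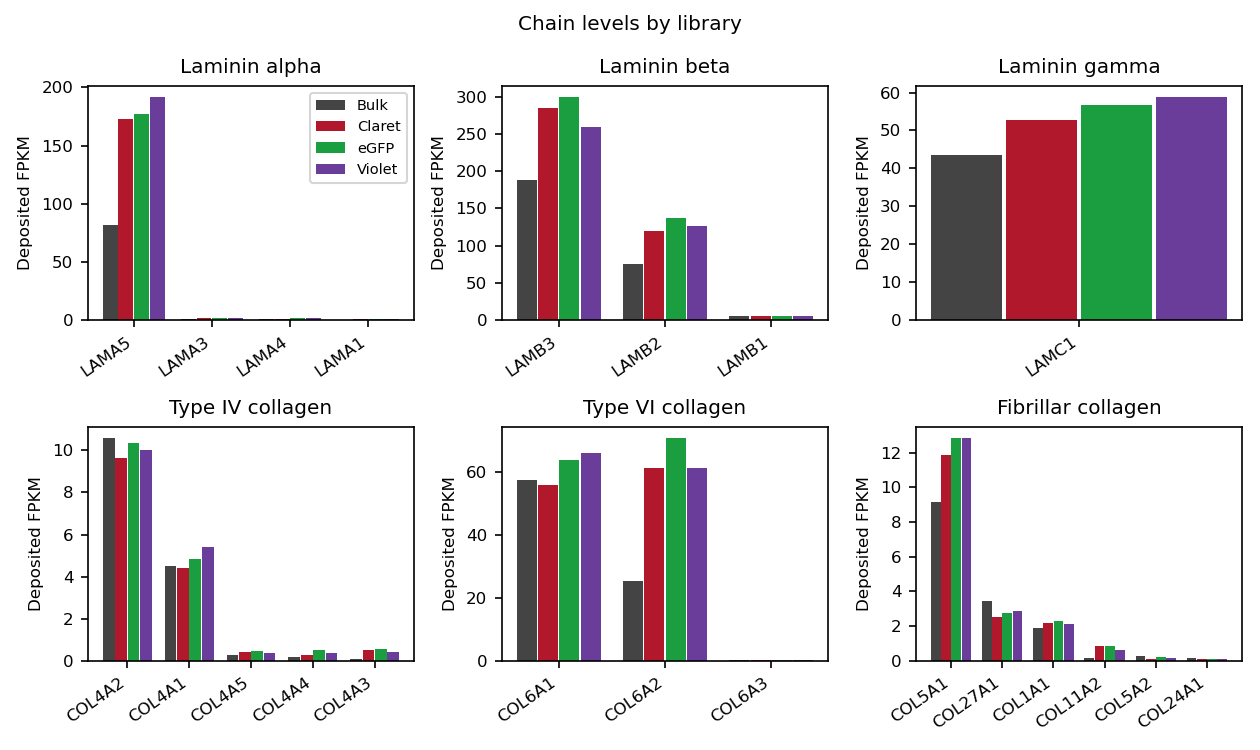
Deposited FPKM of the tested chains named in the text, in 6 families, with 1 bar per library and axes that start at 0. LAMA5 dominates the alpha chains in each library, COL6A2 lies above COL6A1 in Claret and eGFP and below it in Bulk and Violet, and COL4A1 and COL4A2 differ little between libraries.

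Among type IV chains the abundant COL4A1 and COL4A2 were not called, and COL4A3, which is scarce, rose in all 3 libraries. COL4A1 and COL4A2, which form the type IV collagen of nearly all basement membranes, had 1035 and 3176 reads in Bulk. COL4A1 had 1100, 1141 and 1280 reads in Claret, eGFP and Violet, with log2 ratios of -0.02, 0.13 and 0.31. COL4A2 had 3160, 3186 and 3107, with -0.12, -0.01 and -0.03. Summed FPKM of all type IV chains was 15.6 in Bulk, 15.2 in Claret and 16.7 in both eGFP and Violet. The FPKM of COL4A2 exceeded that of COL4A1 by 2.34 times (2.18 to 2.52) in Bulk, 2.19 in Claret, 2.13 in eGFP and 1.85 (1.74 to 1.98) in Violet. Both genes are transcribed away from each other on chromosome 13, with RefSeq starts 126 bases apart. Their deposited bounds overlap (COL4A1 ends at 110307233, COL4A2 begins at 110305812), but the exons of COL4A1 share 0 bases with other genes, COL4A2 included.

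COL4A3, COL4A4 and COL4A5 encode the chains of specialised basement membranes such as those of the kidney glomerulus and the lung. COL4A3 (ENSG00000169031, chromosome 2, 227164565 to 227314792, plus strand) had 11 reads in Bulk against 78 (Claret), 78 (eGFP) and 64 (Violet). It rose in each library, by log2 ratios of 2.52 (1.80 to 3.78), 2.61 (1.90 to 3.87) and 2.35 (1.61 to 3.61), yet stayed below 0.6 FPKM. An opposite-strand gene that overlaps 1.32% of its exons, AC097662.1, had 13, 7, 23 and 14 reads. COL4A4, its head-to-head neighbour (227002711 to 227164453, minus strand), had 25, 45, 82 and 61 reads. COL4A4 rose in eGFP, with 1.63 (1.04 to 2.41), and in Violet, with 1.22 (0.59 to 2.02), and its ratio was 0.70 (0.00 to 1.51) in Claret. COL4A5, on chromosome X, had 50, 79, 84 and 74 reads and log2 ratios of 0.53, 0.71 and 0.55, none called. In Bulk COL4A4 exceeded COL4A3 by 2.06 times in FPKM (0.98 to 4.63), against 0.52 (0.35 to 0.76) in Claret, 0.95 in eGFP and 0.86 in Violet.

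Of the other basement-membrane collagens, COL18A1, the source of endostatin, was the most abundant. It had 2660 reads in Bulk against 2493 (Claret), 2805 (eGFP) and 2487 (Violet), with log2 ratios of -0.20, 0.06 and -0.10. It shares 16.4% of its exon length with the opposite-strand SLC19A1, which had 25 to 36 reads. COL7A1, which forms the anchoring fibrils that hold epithelial basement membrane to the stroma, had 155, 299, 281 and 273 reads. Its log2 ratios of 0.83 (0.56 to 1.13), 0.84 (0.56 to 1.14) and 0.81 (0.53 to 1.11) were similar in size and none was called. Untested COL15A1 had 11 reads in Bulk and 3, 0 and 3 elsewhere. COL8A1, a network collagen of vessel walls and the cornea, had 421, 567, 613 and 564 reads and log2 ratios of 0.32, 0.53 and 0.42.

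Of 11 fibrillar chains 6 were tested, and these were mixed in direction. COL5A1, a chain that nucleates collagen fibrils and sets their width, was the most abundant, with 1593 reads in Bulk against 2252 (Claret), 2295 (eGFP) and 2308 (Violet). Its log2 ratios were 0.39, 0.51 and 0.54, not called. Its partner chain COL5A2 had 30, 14, 25 and 21 reads and fell in Claret alone, with -1.10 (-2.24 to -0.25) and an adjusted exact binomial p of 0.018, beside -0.26 in eGFP and -0.48 in Violet. COL5A2 was not called between Claret and either of these libraries. COL1A1, the main chain of type I collagen, had 284, 361, 363 and 332 reads and log2 ratios of 0.24, 0.34 and 0.22, while its usual partner COL1A2 had 0 reads in each library. COL27A1, a fibrillar collagen of cartilage, had 749, 592, 618 and 641 reads and log2 ratios of -0.45, -0.29 and -0.22. COL24A1 had 25, 17, 16 and 15 reads, and its intervals include 0 in each library.

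COL11A2, a chain of thin cartilage fibrils, was the fibrillar gene that rose in all 3 libraries. The gene (ENSG00000204248, chromosome 6, 33162681 to 33192499, minus strand) had 15 reads in Bulk against 95 (Claret), 89 (eGFP) and 66 (Violet). Its log2 ratios were 2.41 (1.76 to 3.45), 2.41 (1.76 to 3.45) and 2.004 (1.31 to 3.05). Even so its level was 0.143 FPKM in Bulk and 0.610 to 0.830 in the others, below COL1A1 in each library. Summed over all 11 fibrillar genes, reads came to 169 CPM in Bulk against 196 (Claret), 215 (eGFP) and 218 (Violet). In FPKM the fibrillar sum was 15.1 in Bulk against 17.6, 19.1 and 18.7. The type IV sum was 15.6 in Bulk against 15.2, 16.7 and 16.7.

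In type VI collagen the balance of the 2 abundant chains changed. COL6A2 (ENSG00000142173, chromosome 21, 46098097 to 46132849, plus strand) had 2134 reads in Bulk against 5593 (Claret), 6102 (eGFP) and 5295 (Violet). It rose by log2 ratios of 1.28 (1.21 to 1.35), 1.502 (1.43 to 1.57) and 1.31 (1.24 to 1.39). COL6A1, on the same strand at 45981737 to 46005050, had 4766, 5080, 5448 and 5681 reads and log2 ratios of -0.02, 0.18 and 0.25, not called. The FPKM ratio of COL6A2 to COL6A1 was 0.44 (0.42 to 0.47) in Bulk. It was 1.09 (1.05 to 1.13) in Claret, 1.11 (1.07 to 1.15) in eGFP and 0.92 (0.89 to 0.96) in Violet, so these counting intervals do not overlap that of Bulk. COL6A3, the long chain needed for the secreted trimer, had 40, 102, 73 and 111 reads. It rose in Claret with 1.20 (0.70 to 1.81) and in Violet with 1.43 (0.94 to 2.03), and its ratio in eGFP was 0.82 (0.28 to 1.45). COL6A3 stayed below 0.4 FPKM, far under the other 2 chains.

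The window before COL6A2 is printed because this chain rose in each library while its neighbour COL6A1 was not called. It spans 235 bases before the deposited gene boundary (RefSeq, GRCh38.p14, chr21:46097862-46098096, plus strand). Capitals mark 4 matches to GGGCGG or CCGCCC. Matches to TGANTCA or CCAAT were absent from these letters. Over the tested collagens and laminins, 24 of 33 windows (72.7%) held GGGCGG on either strand, beside 45% of all windows, and 7 (21.2%) held CCAAT, beside 34.6%. These 33 windows belong to 25 of the 33 tested collagens and laminins other than COL4A3BP, some with more than 1 start.
COL6A2: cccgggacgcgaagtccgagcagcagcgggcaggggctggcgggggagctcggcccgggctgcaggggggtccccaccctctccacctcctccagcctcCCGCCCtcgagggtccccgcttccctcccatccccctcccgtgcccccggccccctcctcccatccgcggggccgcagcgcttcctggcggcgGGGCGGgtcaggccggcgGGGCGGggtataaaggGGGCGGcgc

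FACIT collagens, which decorate fibril surfaces, held 2 genes that rose in all 3 libraries. COL20A1 (ENSG00000101203, chromosome 20, 63293186 to 63334851, plus strand) had 8 reads in Bulk against 103 (Claret), 113 (eGFP) and 103 (Violet). Its log2 ratios of 3.29 (2.55 to 4.83), 3.52 (2.78 to 5.05) and 3.40 (2.66 to 4.94) were the largest of the 34 tested genes, at levels of 0.047 FPKM in Bulk and 0.553 to 0.644 elsewhere. COL16A1 (ENSG00000084636, chromosome 1, 31652247 to 31704319, minus strand) had 68, 204, 205 and 149 reads, with ratios of 1.45 (1.07 to 1.89), 1.55 (1.18 to 1.997) and 1.11 (0.71 to 1.57). With the GC correction its Violet value was 0.95. COL12A1, the abundant FACIT chain, had 1123, 1221, 1122 and 1003 reads and log2 ratios of 0.01, -0.01 and -0.16. COL9A2, a cartilage chain, had 50, 37, 42 and 44 reads and was not called. Its partner COL9A3 had 23, 23, 10 and 19 reads and fell in eGFP alone, with -1.07 (-2.45 to -0.09) and an adjusted exact binomial p of 0.048.

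COL17A1 was the member that fell in all 3 libraries. It encodes a transmembrane collagen of hemidesmosomes, the junctions through which epithelial cells hold to the anchoring laminin. The gene (ENSG00000065618, chromosome 10, 104031286 to 104085957, minus strand) had 215 reads in Bulk against 70 (Claret), 45 (eGFP) and 72 (Violet). Its log2 ratios were -1.70 (-2.14 to -1.33), -2.22 (-2.77 to -1.80) and -1.55 (-1.98 to -1.19), and each slow-cycling library lay below Bulk. The other tested transmembrane collagen, COL13A1, was abundant, with 4362, 4497, 4000 and 5040 reads and log2 ratios of -0.06, -0.14 and 0.21. COL4A3BP, the ceramide transfer gene, had 704, 513, 529 and 575 reads and log2 ratios of -0.56, -0.42 and -0.29, not called.

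The stretch before COL17A1 is shown because this gene fell in each library. It holds 173 bases (RefSeq, GRCh38.p14, chr10:104085958-104086130, minus strand) with 1 match to CCAAT, in capitals as its reverse complement ATTGG. The search on both strands for TGANTCA, or for GGGCGG, matched nothing in it. GGGCGG was also absent from the windows of COL4A4, LAMA4 and COL6A3, which rose in 2 libraries each. The windows of COL4A3 and COL16A1, which rose in all 3, held 2 matches each, and 1 window of the uncalled COL18A1 held 9. COL20A1 and COL6A1 had no window. Any link between these letters and the calls was not tested.
COL17A1: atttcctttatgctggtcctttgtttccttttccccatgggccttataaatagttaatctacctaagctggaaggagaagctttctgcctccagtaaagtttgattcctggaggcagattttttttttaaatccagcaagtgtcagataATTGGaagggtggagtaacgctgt

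**Figure D4:**
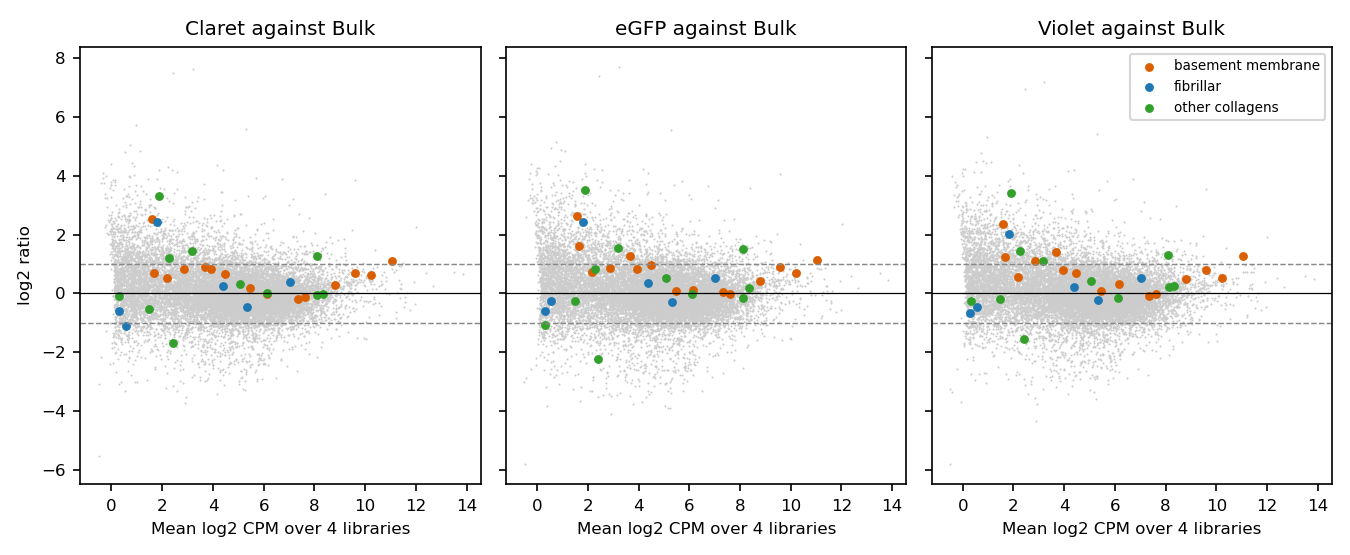
Log2 ratio to Bulk against mean log2 CPM over the 4 libraries for all 14585 tested genes (grey) in each slow-cycling library, with the named basement-membrane, fibrillar and other collagen genes in colour and dashed lines at -1 and 1. The 4 most abundant basement-membrane genes (LAMA5, LAMB3, LAMB2 and LAMC1) lie above 0 in each panel, and the scarce COL20A1, COL4A3 and COL11A2 lie beyond 2.

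Between the 3 slow-cycling libraries, no collagen or laminin gene was called between Claret and eGFP (background 0.713%), Claret and Violet (0.782%) or eGFP and Violet (0.926%). Without the 2-fold limit the exact binomial test gave 13, 12 and 13 of 34 genes, against backgrounds of 12.3%, 17.0% and 16.8%. At an unadjusted p under 0.05 the counts were 16, 16 and 15, but the share of all tested genes at that limit was not computed, so these counts have no background. The log2 ratios of these pairs ran from -0.93, for COL4A4 between Claret and eGFP, to 0.97, for COL9A3 in the same pair. For Claret against eGFP all 13 were lower in Claret, and the direction over all tested genes in that pair was not computed. Against Bulk without the 2-fold limit, 18 genes were higher and 6 lower in Claret (backgrounds 33.1% and 35.3%), 21 and 5 in eGFP (33.6% and 35.9%), and 21 and 5 in Violet (34.0% and 34.9%).

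Other genes of the pathway were grouped in lists by role. Of 24 genes for collagen folding and modification 23 were tested, and none was called in any library by the exact binomial test. Over all tested genes 11.2%, 11.9% and 11.5% rose and 6.71%, 7.61% and 6.91% fell in Claret, eGFP and Violet. SERPINH1, the collagen chaperone, had 3128 reads in Bulk against 2567 (Claret), 2368 (eGFP) and 2197 (Violet), with log2 ratios of -0.39, -0.41 and -0.51. P4HA1, a prolyl hydroxylase subunit, had 2241, 2693, 2965 and 2888 reads and 0.16, 0.39 and 0.37. Of 13 processing and crosslinking genes 10 were tested, and 1, 3 and 2 rose while 1 fell in each library. That is 10%, 30% and 20% rising beside 11.2%, 11.9% and 11.5% of all genes, and 10% falling beside 6.71%, 7.61% and 6.91%. LOX, a lysyl oxidase that crosslinks collagen, had 950, 1979, 2360 and 2432 reads and rose in eGFP (1.30) and Violet (1.36), with 0.95 in Claret. LOXL4, of the same family, rose from 14 reads to 45, 38 and 43, and ADAMTS3, a procollagen protease, fell from 59 to 29, 19 and 20. LOXL4 and ADAMTS14, the latter called in eGFP alone, were at 0.873 and 0.624 CPM in Bulk. Both were tested only through their slow-cycling values, so the filter itself favoured a rise for them, as for such genes in the background.

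Receptors and basement-membrane partners also included genes that rose. Of 15 receptor genes 12 were tested, of which 2 (16.7%), 5 (41.7%) and 4 (33.3%) rose, beside 11.2%, 11.9% and 11.5% of all genes. None was called lower, beside 6.71%, 7.61% and 6.91% of all genes. Their median log2 ratios were 0.75, 0.64 and 0.94, with 11 of the 12 above 0 in each library. DAG1, which encodes dystroglycan, had log2 ratios of -0.87, -0.82 and -0.62, short of 2-fold. ITGB4, the beta subunit of the hemidesmosome integrin, had 2327 reads in Bulk against 7086 (Claret), 5288 (eGFP) and 8020 (Violet), with log2 ratios of 1.498, 1.17 and 1.79. It thus rose where COL17A1, of the same junction, fell. DDR2, a collagen receptor kinase, rose from 20 reads to 66, 60 and 55. ITGB1, the common beta subunit of collagen and laminin integrins, had log2 ratios of 0.40, 0.44 and 0.43 and was not called. Of 12 basement-membrane partners 7 were tested, and 2, 3 and 2 rose (28.6%, 42.9% and 28.6%, with the same backgrounds). NTN4, a netrin that binds laminin gamma chains, had 665, 2261, 2200 and 2090 reads, with 1.65, 1.71 and 1.65. FBLN2, a fibulin, had 3, 17, 23 and 27 reads, with 1.84 (0.60 to 4.81), 2.32 (1.20 to 5.31) and 2.55 (1.47 to 5.54). At 0.187 CPM in Bulk, FBLN2 was tested only through its slow-cycling values, so the filter itself favoured its rise.

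**Figure D5:**
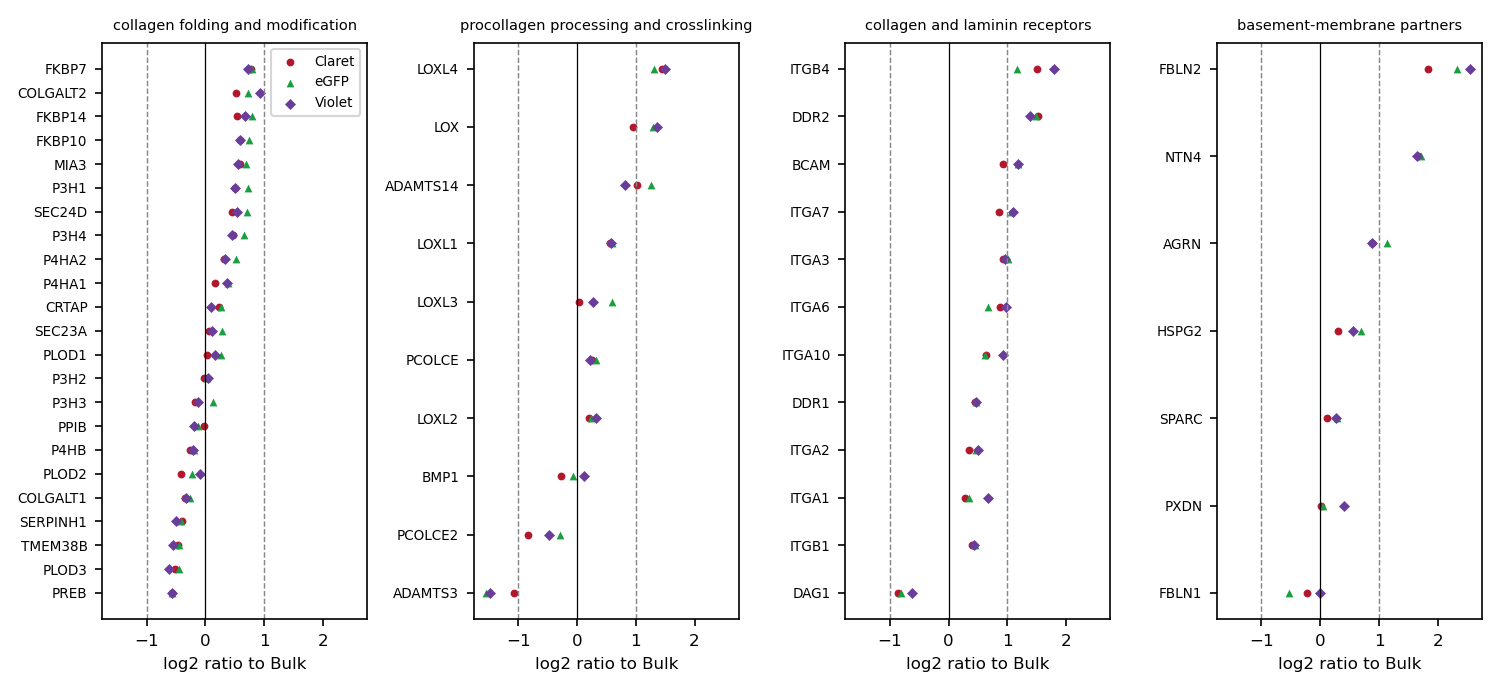
Log2 ratio to Bulk of the tested genes in 4 lists of collagen and laminin partners, 1 marker per slow-cycling library, with dashed lines at -1 and 1. All folding and modification genes lie between the dashed lines, and ITGB4, DDR2, LOXL4, NTN4 and FBLN2 lie beyond 1 in each library.

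Markers of other cells that make matrix were low. Of 9 fibroblast markers 2 were tested, COL1A1 and PDGFRB, and LUM, FAP and COL1A2 had 0 reads in each library. PDGFRB had 201 reads in Bulk against 431 (Claret), 421 (eGFP) and 426 (Violet), and rose in eGFP (1.05) and Violet (1.08), with 0.99 in Claret. The summed level of the list was 30.6 CPM in Bulk against 46.8 (Claret), 49.5 (eGFP) and 49.3 (Violet). Of 5 endothelial markers 2 were tested, with summed levels of 4.37, 7.07, 6.43 and 8.25 CPM over the list. VWF rose from 4 reads to 19, 21 and 24. At 0.249 CPM in Bulk, VWF was likewise tested only through its slow-cycling values. PECAM1 had 57 reads in Bulk against 81 (Claret), 54 (eGFP) and 87 (Violet) and was not called. Of 5 myoepithelial markers ACTA2 was tested and rose from 27 reads to 74, 95 and 70, with KRT5 at 0 and summed levels of 3.24, 5.71, 6.81 and 5.997 CPM. Untested OXTR had 16 reads in Bulk against 10 (Claret), 8 (eGFP) and 10 (Violet), and TP63 had 8, 13, 5 and 13. No leukocyte marker was tested, at 0.18 to 0.50 CPM in sum. The tested collagens and laminins had a median GC content of 57.4%, against 48.3% for all tested genes. Genes in the top GC decile had median log2 ratios of 0.20, 0.20 and 0.18. After GC correction the basement-membrane medians were 0.60, 0.73 and 0.64 and the fibrillar medians -0.24, -0.03 and -0.13. The part of other cell types and of GC content in the differences from Bulk was not tested.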

How the data were processed

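Read counts per gene were deposited by the authors as whole numbers without normalization, per the file headers, and the deposited FPKM values derive from those counts by 1 constant per library. The submitters' processing notes name HISAT2 2.0.5 and featureCounts 1.5.0-p3. Genome build, strand setting and handling of multi-mapped reads are not given in the sources used here, and the gene coordinates match GENCODE 29 (GRCh38). The members and lists were chosen with earlier results of these data known.

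Counts were TMM-scaled with edgeR 4.0.16 in R 4.3.3, and log2 ratios used a prior count of 2. With 1 library per group no residual degrees of freedom exist, so reads of 2 libraries were compared by a two-sided exact conditional binomial test (scipy 1.17.1) with Benjamini-Hochberg adjustment, over genes with a mean of at least 1 CPM. Intervals are exact (Clopper-Pearson) at 95%, and cover counting error only, since reads carry no molecular identifiers. The procedure was tested on simulated counts that held counting error only, so that test does not cover variation between cultures. FPKM was used for levels between genes. The deposited lengths of these genes equal the merged exon bases of all their annotated transcripts, so ranks and chain ratios depend on that length. The counting intervals of the ratios do not cover this, while the change of a ratio between libraries is free of it. Every gene at or above 1 CPM was named except 1 that is counted and not reported here, and COL1A2, COL3A1, COL4A6, COL9A1, COL14A1, COL15A1 and LAMB4 were named after their values were seen. From the other lists, genes called in all 3 libraries were named, plus SERPINH1, P4HA1, LOX and ITGB1. ADAMTS14, DAG1, PECAM1, OXTR and TP63 were named after their values were seen. Alternatives were DESeq2 1.42.0 size factors, library-size scaling, other filters and prior counts, an interval bound, FPKM, a GC correction and the treatment field. Protein sequences were not analysed here.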

Additional observations from a re-analysis of the deposited data

How the results depend on the processing

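No paired analysis was possible because each group holds 1 library. No called ratio of a single gene changed sign under the alternatives for scaling, prior count, FPKM or GC content, while 10 values of uncalled genes did. With library-size scaling COL12A1 in eGFP became 0.014, COL4A1 in Claret 0.0054, COL4A2 in eGFP 0.019 and in Violet 0.016, and COL6A1 in Claret 0.0096. With DESeq2 size factors COL4A2 in eGFP became 0.0011, and on the log2(FPKM + 1) scale COL12A1 in Claret became -0.0053. With the GC correction COL12A1 in eGFP became 0.011, COL18A1 in eGFP -0.21 and COL6A1 in eGFP -0.014. The GC correction moved 4 of 102 ratios below the threshold. With a filter at 10 CPM, 3, 5 and 4 genes rose in Claret, eGFP and Violet and 0 fell in each, 3 rose in all 3 libraries and 0 fell in all 3, with 0 fibrillar and 0 network genes among them. On the log2(FPKM + 1) scale, which understates low genes, 2, 3 and 2 rose and 0, 1 and 0 fell, 2 rose and 0 fell in all 3, of which 0 were fibrillar, 0 network and 1 basement membrane. With groups from the treatment field, 1, 0 and 0 rose and 11, 0 and 0 fell, and 0 did either in all 3, including 0 fibrillar, 0 network and 0 basement-membrane genes. Requiring the interval bound to pass 1 gave 1 lower gene in Claret, 1 lower in eGFP and 6 higher in Violet. Library-size scaling gave 1 lower gene in eGFP and put LAMA3 there at 1.01, and the GC correction left 1 basement-membrane gene higher in all 3. In an alternative chosen after seeing the data, 1 slow-cycling library was left out at a time. This gave 6 to 9 genes that rose in the remaining libraries and 1 to 1 that fell. Of those rising, 1 to 1 were fibrillar, 1 to 2 network and 2 to 5 basement membrane, with the upper values without Claret. A gene called in all 3 libraries is also called in any 2, so these counts could not be lower than with all 3. They are therefore no check of the calls. The cause of the upper values was not tested. Members under about 30 reads in Bulk have wide intervals, and no alternative replaces replicate cultures.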
